A study of Mus musculus with 3 samples.

Results

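The regions described here are stretches of mouse 3′UTR that lay under Ago2 peaks in N2A cells and held a match to the seed of miR-142a-5p, that is, to positions 2 to 8 of the miRNA counted from its 5′ end. A stretch was a run of at least 8 nt of the longest annotated 3′UTR of a protein-coding gene that was covered, on the strand of the gene, by peaks of at least 2 of the 3 libraries. Of 30075 such stretches, 578 held a whole match. They held 585 of the 3739 matches in the annotated 3′UTRs, in 535 of the 2996 genes with a match and of 21028 genes with a 3′UTR. A base that several genes shared was counted once, in the longest 3′UTR. The 130 other matches in the 3′UTRs of these genes served as the closest comparison. They lay in only 100 of the 535 3′UTRs. Their median distances were 2099 nt from the stop codon and 1857 nt to the end, against 1052 and 1012 nt for covered matches. Where all 585 are set against these 130 below, the comparison is therefore not paired by 3′UTR. The peaks themselves chose the members, so that the coverage of matches against windows or other letters is given below as a description, without a test. Tests compared only features of the matches that the rule did not use, namely the letter after the match, the flanks and the place in the 3′UTR.

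N2A is a mouse neuroblastoma cell line. The cells were kept under basal conditions, with no treatment, crosslinked with UV light once at 400 mJ/cm2 and then 2 times at 200 mJ/cm2, and Ago-bound RNA was recovered with an antibody against Ago2 (HITS-clip). Each of the 3 libraries came from about 60000000 cells, and all 3 belong to 1 group. The labels do not say whether the libraries came from separate cultures, so that the spread between them may be technical, and no control immunoprecipitation was analysed here.

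A miRNA guides an Argonaute protein to mRNAs by base pairing of its seed, most often in the 3′UTR, and the bound mRNA is then translated less or degraded sooner. An adenosine in the mRNA opposite the first position of the miRNA makes an 8mer site, which on average represses more strongly than the same match without it. miR-142a-5p comes from a hairpin gene that is known for its expression in blood cells, including microglia, whereas miR-340-5p, which has a related seed, is made in many tissues.

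The mature sequences (RefSeq, GRCm38.p6) are shown with the seed in capitals, since the relation of the 2 seeds bears on every 8mer count below.
miR-142a-5p: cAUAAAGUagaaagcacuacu
miR-340-5p: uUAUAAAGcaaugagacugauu
The match to miR-142a-5p in the mRNA is ACTTTAT and the match to miR-340-5p is CTTTATA. A miR-142a-5p match that is followed by A therefore always contains a miR-340-5p match, and all 1094 8mers were such double matches. Of the 1679 mature mouse miRNAs in the table, none other than miR-142a-5p itself carried its positions 2 to 8, and the same was true of miR-340-5p.

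The 8 sites below are printed 5′ to 3′ on the strand of the gene (GRCm38), with the 7-nt match, or all 8 letters of an 8mer, in capitals. All lie in 3′UTRs. The first 4 are 8mers that were under peaks in all 3 libraries near the centre of the shared stretch, the fifth is an 8mer with an added match to positions 13 to 16 of the miRNA, and the last 3 belong to genes discussed below.
Cdon, chr9:35505965-35505994, plus strand: ataagatactgtactaatcaACTTTATAta
Tnpo1, chr13:98842643-98842672, minus strand: gtgtgagctgtccgtgtgtgACTTTATAaa
Eif1ax, chrX:159386559-159386588, plus strand: cataagctacaattttgagtACTTTATAaa
Hdlbp, chr1:93407770-93407799, minus strand: tcaggaaataaatttccttgACTTTATAaa
Rhbdd1, chr1:82444181-82444210, plus strand: tctgctgctttcagaagattACTTTATAca
Nfe2l2, chr2:75675869-75675898, minus strand: gtgatgtgaaatgcagaaacACTTTATAag
Socs1, chr16:10783834-10783863, minus strand: acagccagtttaggtaataaACTTTATtat
Tgfbr2, chr9:116090069-116090098, minus strand: caacagccaataacgtttgcACTTTATtaa

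The libraries held 710947, 497795 and 829621 peaks on the 21 nuclear chromosomes, with median widths of 83, 84 and 85 nt and none narrower than 79 nt. Their peaks covered 6.64%, 17.6% and 17.5% of annotated 3′UTR bases in replicates 1, 2 and 3. Replicate 1 thus had many peaks but covered the least 3′UTR. The file gives no read counts per peak, and the depth of the libraries is unknown.

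Replicate 1 covered 359 of the 3739 matches, replicate 2 covered 842 and replicate 3 covered 823. As background, 7.22%, 18.7% and 17.8% of all 7-nt windows of the same 3′UTRs were covered, against 9.60%, 22.5% and 22.0% of the matches. Matches were covered more often than windows in all 3 libraries. When each 3′UTR was given its own share of covered windows, 271.0, 702.6 and 680.1 matches would have been under peaks, and the ratio of observed to this number was 1.32 in replicate 1, 1.20 in replicate 2 and 1.21 in replicate 3 (1.24 ± 0.0698, SD, n = 3). In at least 2 libraries, 15.6% of matches were covered against 11.1% of windows of 3′UTRs with a match and 9.76% of windows of all 3′UTRs, and the ratio within 3′UTRs was 1.36. In the 3′UTRs of the members themselves, 33.8% of windows were covered. In all 3 libraries, 126 matches in 120 genes were covered, 3.37% of matches against 1.93% of windows, with a ratio of 1.66.

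Most covered matches rested on replicates 2 and 3, which shared 348 of them without replicate 1. Replicates 1 and 2 shared 61, replicates 1 and 3 shared 50, and the other 126 were under peaks of all 3 libraries. The member stretches had a median length of 121.5 nt, with a range of 12 to 1856 nt, against a median of 86 nt over all stretches, and 408 of them were at most 200 nt long. Of the matches outside the members, 43 lay partly inside a stretch, 3111 had no base in one, and 2353 of these had no base under a peak of any library. At the length threshold, no match lay in a stretch of exactly 7 nt. The shortest members were in Il1rap, a receptor subunit for interleukin 1 (12 nt), and Rc3h2, an RNA-binding protein that destabilises mRNA (19 nt).

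With the strand of every peak reversed, 24 matches were covered in at least 2 libraries, 0.642% of all, against 0.384% of windows. The number from the windows of the same 3′UTRs was 16.7, a ratio of 1.43, and in the single libraries the reversed ratio was 1.05, 1.18 and 1.20. Few matches thus lay under peaks on the opposite strand, although the ratio of that small number was as high as on the true strand.

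The cover of the 8mer and that of the plain 7mer stood in no steady order between libraries. In at least 2 libraries, 162 of 1094 8mers were covered (14.8%; 95% Wilson interval 12.8 to 17.0), and 423 of 2645 matches not followed by A (16%; 14.6 to 17.4). These intervals cover counting error only. The 8mer ratio was 1.44, 1.11 and 1.27 in replicates 1 to 3 (1.27 ± 0.164), and that of the other matches was 1.28, 1.23 and 1.19 (1.23 ± 0.0457). The 8mer stood above the 7mer in replicates 1 and 3 and below it in replicate 2. The log2 ratio of 8mer to 7mer was 0.04 ± 0.17 (SD, n = 3; exact two-sided sign-flip permutation test, p = 0.75; 2 of 3 libraries above 0), and the smallest p that 3 libraries allow is 0.25. By the letter that followed the match, the ratio in at least 2 libraries was 1.35 for A, 1.35 for C, 1.37 for G and 1.37 for T.

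Matches that belong to miR-340-5p alone, with another letter than A in front, had ratios of 1.09, 1.20 and 1.19 (1.16 ± 0.0612), and 347 of 2593 were covered in at least 2 libraries (ratio 1.28). Matches to positions 2 to 7 of miR-142a-5p only had ratios of 1.13, 1.10 and 1.11 (1.11 ± 0.0135). The full match to miR-142a-5p was above the shorter one in each library (SD 0.0698 and 0.0135). With C or G in front, however, the shorter match has 5 letters that are A or T in place of 6. In at least 2 libraries the full match had a ratio of 1.36 and the shorter one 1.17. The median over 7-nt sequences with at least 500 occurrences was 1.26 with 6 such letters and 1.13 with 5. The part of composition in this difference was not tested. Since each 8mer belongs to both miRNAs, a peak over it cannot be told apart between them.

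**Figure D1:**
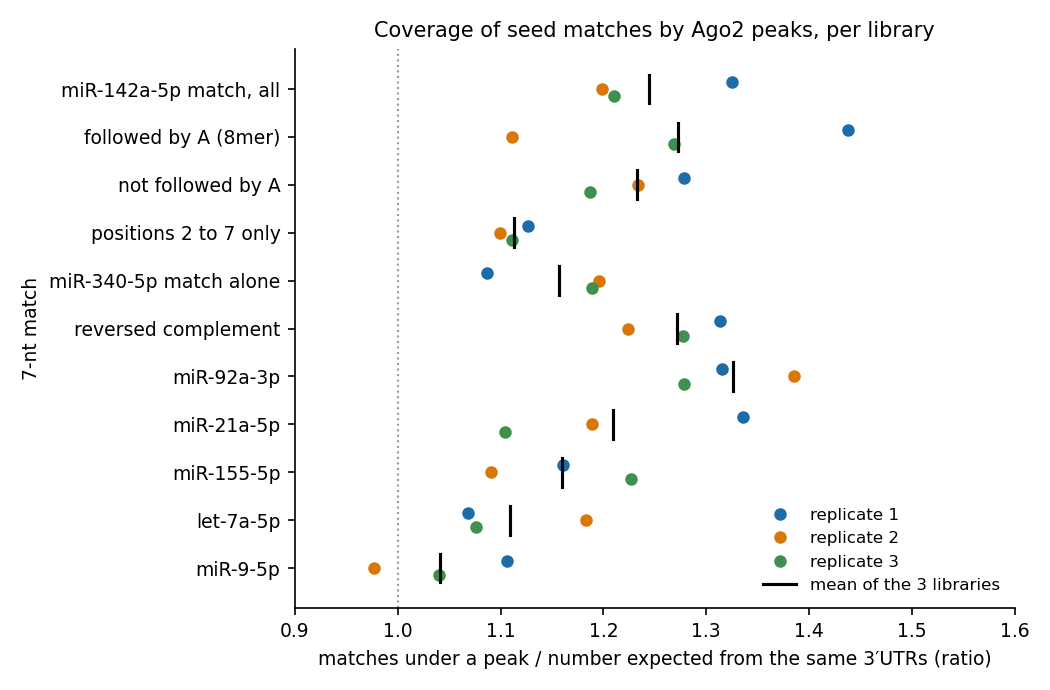
Observed over expected number of matches under peaks (x axis, ratio) for each kind of 7-nt match (y axis), with 1 point for each of the 3 libraries and a bar at their mean; the dotted line at 1 marks no difference from the windows of the same 3′UTRs. The miR-142a-5p match lay at 1.32, 1.20 and 1.21, beside the reversed complement of the match at 1.31, 1.22 and 1.28, and the miR-9-5p match was nearest to 1.

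The same measure was taken for other letters as controls. The reversed complement of the match, which does not pair with the miRNA, was covered in 639 of 4470 occurrences, with ratios of 1.31, 1.22 and 1.28 (1.27 ± 0.0452) and a ratio of 1.40 in at least 2 libraries. In all 3 libraries the ratio of the reversed complement was 1.71, against 1.66 for the match. Its occurrences preceded by A contain AATAAA, the usual polyadenylation signal, and had ratios of 1.501 in at least 2 libraries and 1.96 in all 3. Those not preceded by A had 1.30 and 1.45. The reversed complement was thus above the match with that A and below it without. Among the 105 arrangements of the letters of the match, 6, itself included, had a ratio at or above its own in at least 2 libraries, and the arrangements ranged from 1.08 to 1.42 with a median of 1.25. Only 3, itself included, reached its mean ratio over the single libraries.

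The ratio followed the base composition of the 7-mer. Over 11880 7-mers with at least 500 occurrences, the median ratio rose from 0.653 with no A or T to 0.985 with 4, 1.26 with 6 and 1.38 with 7. The match has 6, and 81 of 896 7-mers with as many were at or above it, itself included. The match was thus above the median of 7-mers of its own composition. The part of base composition in the cover of the match was not tested further.

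**Figure D2:**
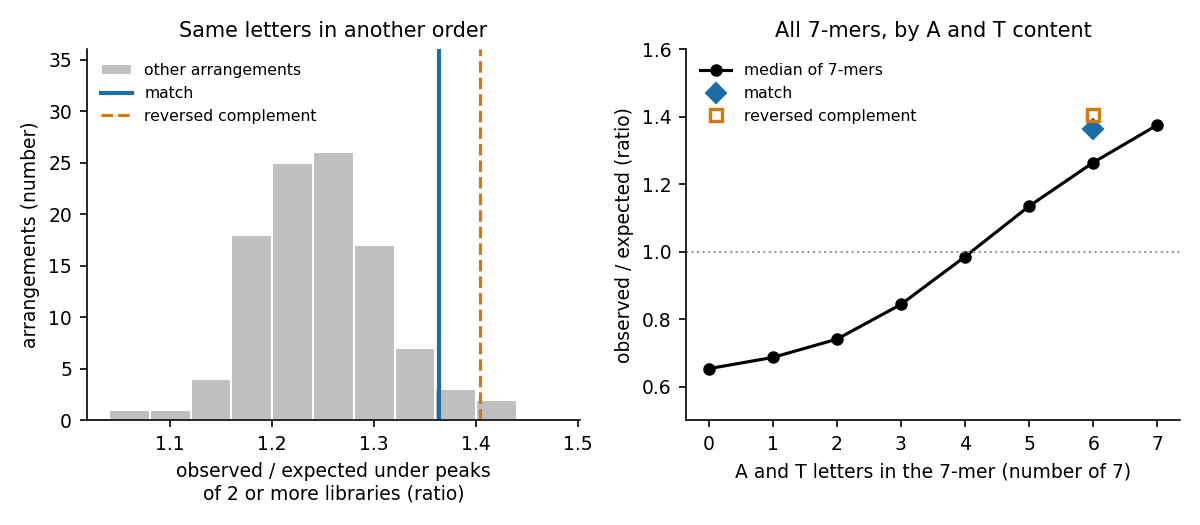
Left, number of arrangements (y axis) of the letters of the match by their observed over expected ratio in at least 2 libraries (x axis), with lines for the match at 1.36 and its reversed complement at 1.40. Right, median ratio of 7-mers (y axis) by their number of A and T letters (x axis), which rose from 0.653 to 1.38, with the match and the reversed complement as single points at 6 letters.

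Other miRNAs gave a scale for these values. The match of miR-92a-3p had ratios of 1.32, 1.38 and 1.28 (1.33 ± 0.0541), although only 4 of its letters are A or T, and that of miR-21a-5p, the miRNA at the centre of the study, 1.34, 1.19 and 1.10 (1.21 ± 0.117). The match of miR-155-5p was at 1.16 ± 0.0680, that of let-7a-5p at 1.11 ± 0.0643 and that of miR-9-5p at 1.04 ± 0.0648. The miR-142a-5p match lay within this range, below miR-92a-3p in the mean by about the spread between libraries.

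The order changed when 30 nt were taken off each end of every peak, as an alternative in case the peaks had been widened. The sources used do not say whether they were. Of the 585 matches, 192 (32.8%) then stayed covered in at least 2 libraries, and the ratio was 1.32. The ratio was 2.49 for miR-92a-3p, 2.08 for let-7a-5p, 1.74 for miR-21a-5p and 1.67 for miR-155-5p in the same trimmed peaks, all above the miR-142a-5p match, and 1.00 for miR-9-5p, below it. It was 1.84 for the reversed complement (2.20 preceded by A, 1.47 otherwise), 1.01 for the miR-340-5p match alone and 1.04 for the other arrangements together. The miR-142a-5p match thus stood above its rearranged letters in trimmed peaks but below its own reversed complement. By ratio it ranked 3 of the 105 arrangements there in at least 2 libraries and 6 in all 3, and with peaks of 86 to 200 nt only it ranked 13 and 6. By contrast, taking only peaks of at most 1000 nt left 556 of the 585 matches covered.

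Peak cover rose towards the match in each library. At the match, 10.0% of sites were covered in replicate 1, against 7.20% of positions 150 to 300 nt away. The values were 23.3% and 19.1% in replicate 2, and 22.7% and 18.2% in replicate 3. The ratio of near to far was 1.39, 1.22 and 1.25 (1.29 ± 0.0906), compared with 1.16, 1.12 and 1.16 (1.15 ± 0.0221) around the other arrangements of the letters. Around the reversed complement it was 1.31, 1.23 and 1.30. The rise around the match was larger than that around rearranged letters in each library, but larger than that around the reversed complement in replicate 1 only. In trimmed peaks the mean was 1.49 around the reversed complement and 1.30 around the match.

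**Figure D3:**
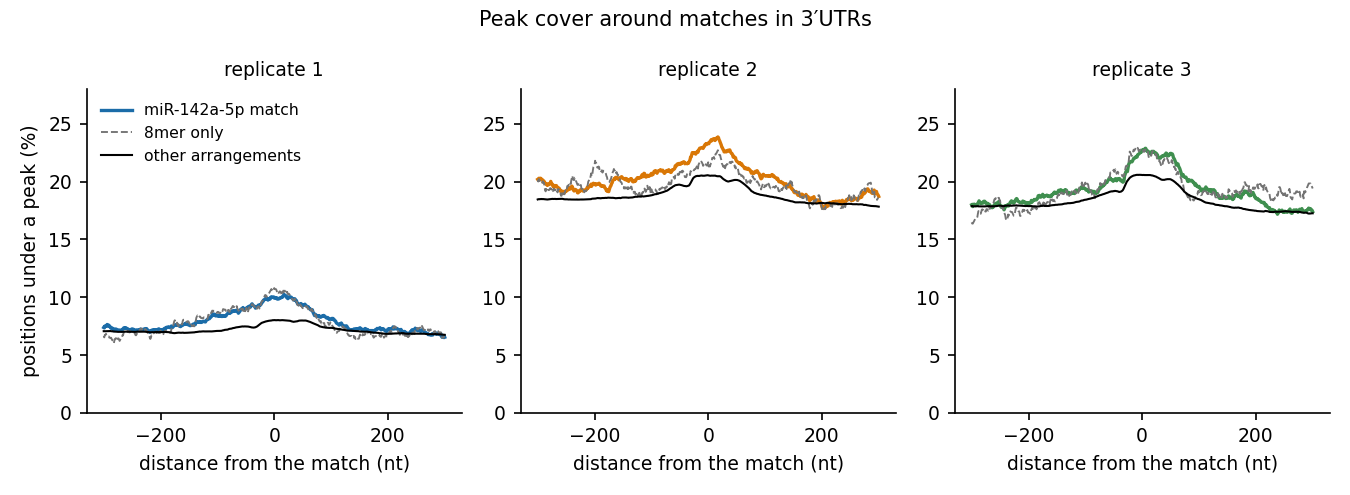
Percent of positions under a peak (y axis) by distance from the match in nt (x axis, 5′ to 3′), 1 panel for each library, for all miR-142a-5p matches (coloured), the 8mers among them (dashed) and the other arrangements of the letters (black). Cover at the match was 10.0%, 23.3% and 22.7%, above the cover 150 to 300 nt away in every panel.

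Within narrow peaks, of at most 200 nt, the match lay within 10 nt of the centre of the peak in 70 of 285 cases in replicate 1 (24.6%), 173 of 727 in replicate 2 (23.8%) and 153 of 724 in replicate 3 (21.1%). The other arrangements were there in 19.7%, 21.2% and 20.9%. The match was more central by a few percentage points in replicates 1 and 2 and about equal in replicate 3 (23.2% ± 1.80 against 20.6% ± 0.801, SD, n = 3).

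Covered matches had flanks slightly richer in A and T than the other matches of the same 3′UTRs. In the 30 nt on each side, A and T made up 67.0%, 66.3% and 65.6% around covered matches in replicates 1, 2 and 3, and 64.2%, 64.2% and 63.2% around the others. The difference was 2.85, 2.09 and 2.45 percentage points (2.46 ± 0.379, over 79, 129 and 123 3′UTRs that hold both kinds; exact two-sided sign-flip permutation test, p = 0.25, the smallest possible; higher in 3 of 3 libraries). Covered windows of any sequence exceeded uncovered ones of the same 3′UTRs by 3.22, 3.25 and 3.84 points. These values were taken over 1690, 1790 and 1938 3′UTRs with a match, a larger set than that of the matches. The flanks of the match thus differed by no more than those of windows in general, although over unlike sets of 3′UTRs.

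The place of the match in the longest 3′UTR differed in no steady direction between libraries. Covered matches lay at 51.7%, 49.7% and 49.7% of the length of the 3′UTR from the stop codon, and the others of the same 3′UTRs at 46.9%, 50.6% and 47.8%, a mean difference of 1.91 ± 2.86 percentage points (exact two-sided sign-flip permutation test, p = 0.5; 2 of 3 libraries above 0). With the union of 3′UTR exons in place of the longest 3′UTR, the difference was 3.61 ± 0.754 (exact two-sided sign-flip permutation test, p = 0.25, the smallest possible). Over that larger set of 3′UTRs with a match, covered windows of any sequence lay nearer to the stop codon than uncovered ones. The difference was -2.38, -3.40 and -3.40 percentage points. Over all members, 17.3% of covered matches were in the first 15% of the 3′UTR and 20.7% in the last 15%. The shares were 16.2% and 13.8% for the 130 others, which lay in 100 of the 535 3′UTRs. Those of all uncovered matches were 13.8% and 19.4%. The members lay in long 3′UTRs, with a median of 2619 nt against 2384 nt for genes whose matches were all outside the members and 960.5 nt over all genes.

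**Figure D4:**
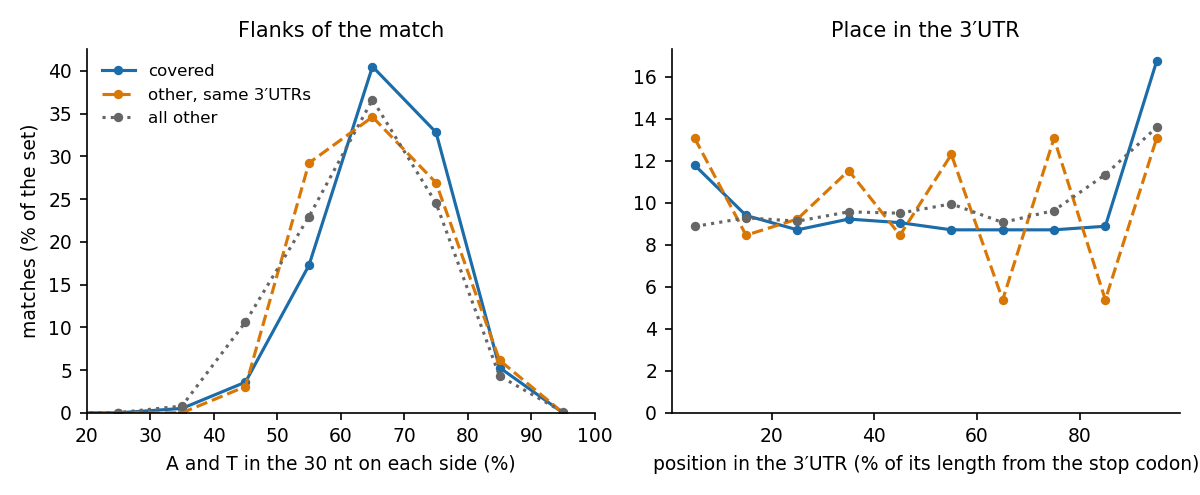
Share of matches (y axis, percent of each set, in bins of 10 percentage points) by A and T content of the 30 nt on each side (left) and by position along the 3′UTR (right), for the 585 covered matches, the 130 others of the same 3′UTRs and all 3154 matches not covered. The covered set lay to the right in A and T content, with medians of 66.7%, 65.0% and 63.3%. The 130 others lay in 100 of the 535 3′UTRs of the covered set.

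A match to positions 13 to 16 of the miRNA, the letters TGCT starting 9 to 20 nt before the seed match, can add pairing beyond the seed. It was present at 45 of 585 covered matches (7.69%; 95% Wilson interval 5.80 to 10.1), at 7 of 130 others of the same 3′UTRs (5.38%; 2.63 to 10.7) and at 178 of 3154 uncovered matches (5.64%; 4.89 to 6.50). These intervals overlapped. It stood beside 12 covered 8mers. They included those in Rev3l (the catalytic subunit of DNA polymerase zeta), Sar1a and Vps54 (vesicle transport), Rhbdd1 (a rhomboid protease), Soat1 (cholesterol esterification), Napb (SNARE disassembly at synapses), Stil (centriole assembly), Glmn, Dusp11 (an RNA phosphatase), Zik1 (a zinc finger protein) and Tmem245. Of these, the Rhbdd1 site printed above was the only one under peaks in all 3 libraries, and its TGCT begins 15 nt before the match.

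Seed matches of other miRNAs were few in the member stretches. They held 172 miR-340-5p matches, of which only 10 did not overlap a miR-142a-5p match. In 120.9 kb of member stretch there were 14 matches of miR-155-5p, 13 of miR-21a-5p, 12 of miR-9-5p, 10 of let-7a-5p and 9 of miR-92a-3p. Per kb, miR-155-5p matches were at 0.116 in members and 0.0805 in all stretches, those of miR-21a-5p at 0.108 and 0.0711, those of let-7a-5p at 0.0827 and 0.0726, and those of miR-9-5p at 0.0993 and 0.0949. The match of miR-92a-3p was the only one of the 5 that was less dense in members, at 0.0745 and 0.0945. Most members therefore held none of these other seeds.

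In all 3 libraries together, 39 8mers were covered, each in another gene. The 15 that lay nearest to the centre of the stretch common to the libraries were taken as examples. The 8mer of Cdon, a cell surface receptor that takes part in hedgehog signalling, was under peaks of 100, 111 and 94 nt in replicates 1, 2 and 3, in its 3432-nt 3′UTR. The 8mer of Eif1ax, a factor that scans for the start codon, was under peaks of 101, 92 and 81 nt. That of Hdlbp, the RNA-binding protein vigilin, was under peaks of 101, 92 and 93 nt. These 3 sites had narrow peaks in every library, and the match lay at most 8.5 nt from the centre of the shared stretch.

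The 8mers of Uhmk1, a serine/threonine kinase, and Gcnt4, a glycosyltransferase, had peaks of similar width, 90 to 107 nt in all libraries. Tnpo1 encodes transportin 1, a nuclear import receptor, and its 8mer was under peaks of 99, 302 and 89 nt. For Nras, a small GTPase of the Ras family, the peaks were 106, 166 and 242 nt wide. At other sites 1 library had a long peak. At Rab21, a GTPase of endosomes, the widths were 952, 84 and 92 nt, and at Cit, a kinase of cell division, 1442, 116 and 97 nt.

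Dusp2, a phosphatase that inactivates MAP kinases, had peaks of 93, 156 and 128 nt, with the match 61 nt from the end of its short 3′UTR of 581 nt. The ribonuclease inhibitor gene Rnh1 had the shortest 3′UTR of the 15 (152 nt) and peaks of 108, 107 and 116 nt. The remaining 8mers of this set were in Arhgap11a (a GTPase activator), Sept2 (a septin), Rhbdd1 and Sun1 (a protein of the nuclear envelope). The 15 genes thus spanned transport, signalling and cell division, and no function was tested for them.

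Of 582 3′UTRs with 2 or more matches, 441 had none covered, 100 had some and 41 had all. In 47 genes at least 2 matches were members, and in 3 of them, Dtl, Stard4 and Tmx3, there were 3. Fzd3, a Wnt receptor, held 2 7mers, at 11.9% and 86.5% of its 10270-nt 3′UTR, with peaks of 107, 114 and 90 nt over the latter and 95, 90 and 140 nt over the former. Both were covered in all 3 libraries. Ccng2, an unconventional cyclin, had a 7mer under peaks of 105, 107 and 88 nt and an 8mer under peaks of 95, 557 and 147 nt. The motor protein gene Kif5c had an 8mer covered in all 3 libraries (84, 118 and 89 nt) and a 7mer covered in replicates 2 and 3 only (164 and 100 nt).

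In 7 member stretches 2 matches lay together. They were 128 nt apart in Stard4, 135 nt in the kinase gene Hipk1, 146 nt in Dtl, a subunit of a ubiquitin ligase, and 159 nt in Stam2, a protein of endosomal sorting. In Cnot6, a deadenylase that shortens poly(A) tails, Rpn1 and Tnpo1 the distances were 462, 790 and 811 nt. No pair of matches in 1 stretch was close enough for both to lie in a single peak of median width.

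Among genes known from general knowledge as targets or candidates, Nfe2l2, the transcription factor of the response to oxidative stress, held an 8mer that was under peaks of 120 nt in replicate 1 and 217 nt in replicate 2, and under none in replicate 3. Socs1, an inhibitor of cytokine signalling, had a 7mer under peaks of 85, 86 and 82 nt in replicates 1 to 3. Smad3 and Tgfbr1 had no match. Each of these genes had a stretch in at least 2 libraries, as did 34.6% of all genes.

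Genes were also grouped by the start of their symbols, as a description of who the members were. A group made in this way also holds genes of other function whose symbols start alike, such as Kif11, a motor of cell division, beside the neuronal kinesins and Secisbp2l, an RNA-binding protein, among the membrane traffic genes. Of all genes with a match, 17.9% were members. Of genes with symbols of kinases and phosphatases 18 of 47 were members (38.3%; these include regulatory subunits and 1 gene that is neither), among them Map2k7 (peaks of 2044, 109 and 125 nt). Symbols of RNA-binding proteins had 9 of 28 (32.1%), including Elavl2, whose 8mer was under peaks of 81, 134 and 196 nt. Symbols of TGF-beta and BMP signalling had 5 of 10 (50.0%), all 5 of them receptors: Acvr2a, Bmpr1a, Bmpr2, Tgfbr2 and Tgfbr3. The 7mer of Tgfbr2, printed above, was under peaks of 96, 114 and 94 nt and its centre lay 0.5 nt from the centre of the shared stretch.

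Symbols of the neuronal cytoskeleton and synapse had 5 of 12 members (41.7%) and those of membrane traffic 11 of 37 (29.7%), such as Rab1a, a GTPase of transport from the endoplasmic reticulum to the Golgi (101, 142 and 171 nt). Ubiquitin genes had 15 of 69 (21.7%), zinc finger and Klf genes 16 of 90 (17.8%, near the share over all genes) and solute carriers 10 of 64 (15.6%). Zfp36, an RNA-binding protein that hastens the decay of mRNAs with AU-rich elements, was under peaks of 96, 83 and 94 nt. These shares also move with how often a gene has any peak, and 50.1% of all genes with a match had a stretch somewhere in the 3′UTR. Whether the groups differ from other genes was not tested.

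The label of the cells and the source of the miRNA were looked at through marker genes and the hairpin loci. Of 12 neuronal or neuroblast markers, 8 had a 3′UTR stretch in at least 2 libraries (7, 9 and 10 had a peak in replicates 1, 2 and 3). Of 12 blood markers, 3 had one (5, 1 and 4), namely Ptprc, Laptm5 and Hbb-bs, against 34.6% of all genes. Cd68, Tyrobp, Lyz2, Cd3e, Csf1r and Hba-a1 had no peak in any library. Among the neuronal markers, Nefl had no peak in any library. Nefm had peak cover in replicate 2 only and Dcx in replicate 3 only. Syp had peak cover in replicates 1 and 3 but no stretch in at least 2 libraries. 2 of the neuronal markers were members. Map1b, a microtubule protein of growing axons, had a 7mer under peaks of 105, 183 and 238 nt. Elavl4, an RNA-binding protein of neurons, had a 7mer under peaks of 97, 104 and 100 nt. Its other match, an 8mer, was covered in replicate 2 only and was not a member. The 3′UTRs of the blood markers were 74 to 1669 nt long and those of the neuronal markers 250 to 7709 nt, and the part of length in these counts was not tested. The 1 blood marker with a match, Csf1r, was covered in no library.

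The Mir142 hairpin lies at chr11:87756864-87756927 on the plus strand (GRCm38), and in each library 1 peak on the same strand spanned it whole. These peaks were 136, 132 and 137 nt wide. On the opposite strand there was 1 peak, of 84 nt, in replicate 1 and none in the other two. At the Mir340 hairpin the opposite strand had no peak in replicate 1 and 1 very long peak each in replicates 2 and 3 (18176 and 12006 nt). The hairpin, at chr11:50069702-50069799 on the plus strand, had 2 peaks on its strand in each library, the narrower ones 85, 83 and 85 nt wide. RNA of both hairpins was thus under Ago2 peaks in all 3 libraries, but a peak in this file has no height, and the amount of either mature miRNA was not measured.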

How the data were processed

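Per the labels, 3 Ago2 HITS-clip libraries of untreated N2A cells were sequenced, and the submitters' processing notes name FastQC, cutadapt and STAR (versions not given) and mm10, which is GRCm38. The authors deposited 1 table of peaks, with positions, strand, library and a score whose unit is not stated and that was not used. The peak caller is not given in the sources used here. Replicates were called separately. Positions were read as 0-based starts. 3′UTRs were taken from GENCODE M21, without the stop codon, as the longest per protein-coding gene, and sequence from the RefSeq GRCm38.p6 genome. A match counted as covered when its 7 nt lay inside a stretch of at least 8 nt under peaks, and the expected number was the sum, over matches, of the share of covered 7-nt windows in the same 3′UTR. Bases shared by several 3′UTRs (the protocadherin alpha genes, for example) were counted once. Differences over libraries were tested with an exact sign-flip permutation test. Fractions of single sets have 95% Wilson intervals, which cover counting error only.

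The genes named were 8mers covered in all 3 libraries nearest to the centre of the shared stretch (15), genes with at least 2 covered matches, 8mers with a match to positions 13 to 16, listed targets and markers with a match, and the stretches nearest to the length threshold; Tgfbr2, Zfp36, Elavl2, Rab1a and Map2k7 were chosen from the gene groups after their values were seen. Not all genes of a class are printed, and sites on chromosome 18 are printed without sequence. Some items chosen by these rules are not reported here. The members and lists were chosen with earlier results of these data known. Scripts ran in Python 3.11.15 with numpy 2.4.6, pandas 2.3.3, scipy 1.17.1 and pysam 0.24.0 and were tested on simulated peaks.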

Additional observations from a re-analysis of the deposited data

How the results depend on the processing

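Read depth and peak height are unknown, the sign-flip test over 3 libraries cannot reach a p below 0.25, and sites are not replicates. No paired analysis was possible because only 1 group was sequenced, so that replicate numbers pair no samples between groups. Of 53 recomputed values, 43 kept their direction where a test was run, or moved little. Little meant less than the spread between libraries (ratios) or 1.5 times (counts). Leaving out 1 of 3 libraries cannot move a mean ratio by as much as that spread. For the tested measures only a change of direction could be counted. The count of 43 is therefore no measure of how robust the results are. Among these 43 the sizes still varied. That of position went from 0.021 with peaks of at most 1000 nt to 3.61 with the union of exons. The 578 member stretches fell to 162 with 8mers only, 125 in all 3 libraries and 191 with peaks trimmed by 30 nt, and ranged from 174 without replicate 2 and 186 without replicate 3 to 468 without replicate 1. The ratio of matches to windows was 1.33 with peaks of 86 to 200 nt and 1.15 with trimmed peaks (1.20 to 1.27 leaving out single libraries). The near-to-far ratio was 1.38 with peaks of 86 to 200 nt (1.23 to 1.32). The log2 ratio of 8mer to 7mer turned to -0.028 without replicate 1 (highest 0.13, without replicate 2), and the difference in position to -1.01 with peaks of 86 to 200 nt (0.466 to 3.33 leaving out libraries). The A and T difference was 2.27 to 2.65 leaving out libraries. The cause of these shifts was not tested. The trimming of the other miRNAs' matches, the split of the reversed complement and counting shared 3′UTRs once per gene (592 stretches) were added after the data were seen.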
